A study of Mus musculus with 10 samples.

Results

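The comparison asked whether cytotoxic T lymphocytes (CTLs) changed between 4 h and 24 h in the same way when their antigen came as free peptide and when it came on tumor cells. The cells were 2/20 CTLs of wild-type genotype, a mouse CTL line that recognizes the AH1 peptide and was restimulated weekly with irradiated BALB/c spleen cells, AH1 (1 µg/mL) and recombinant IL-2 (10 units/mL). One arm received AH1 peptide and the other was co-cultured with 4T1 cells, a mammary carcinoma line, and both were sampled at 4 h and 24 h. Cells were taken from the cultures on beads carrying an antibody to CD45, and polyadenylated RNA was sequenced. The 4 groups had 2 libraries each, 8 of the 10 libraries of the series, and the other 2 were of resting CTLs. The members of the comparison were all genes with enough counts, 14729 of 35275 in the file. For each gene the change from 4 h to 24 h with peptide was subtracted from the change in co-culture. This difference, the interaction of antigen source and time, is given on the log2 scale with its SE. A positive value means that the gene rose more, or fell less, in co-culture. A gene is called higher or lower where its adjusted p in edgeR's quasi-likelihood test (Benjamini-Hochberg over all 14729 genes) was under 0.05. Such p-values rest on how far the 2 libraries of each group lay apart, and that spread may be technical. All groups come from 1 CTL line, and no library of 4T1 cells alone was analysed.

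A CTL that binds its antigen signals through the T cell receptor. Immediate early transcription factors and cytokines come up within hours and are shut off again, and growth, DNA replication and division follow. The interferon-gamma it secretes acts on neighbouring cells, tumor cells included, where it turns on antigen presentation genes through factors such as IRF1. Type I interferons act through a complex that contains IRF9 and binds a short promoter element, the interferon-stimulated response element (ISRE), in front of antiviral genes.

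Gene counts per library ranged from 14104658 to 22910633. The unit of level is CPM, a gene's share of the effective library size in counts per 1000000. Co-culture libraries carried RNA of epithelial cells: the 26 epithelial genes summed to 5702 to 6307 CPM there and to 42.4 CPM or less in every peptide and resting library. The 18 T cell identity genes summed to 16170 and 15770 CPM with peptide at 4 h, 4824 and 4458 CPM with peptide at 24 h, and, in co-culture, 3300 and 3468 CPM at 4 h but 1510 and 1428 CPM at 24 h. At rest they summed to 9181 and 9542 CPM. Fewer T cells and less RNA of these genes per T cell cannot be told apart in such bulk libraries. Transcripts of B cell markers were seen with peptide (229.5 to 582.5 CPM summed) and hardly in co-culture (1.88 CPM at most), where Ms4a1 and Cd22 had no count. Ifng reads made up 9.14% and 7.48% of the counts with peptide at 4 h. What part each of these had in the interactions was not tested.

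**Figure D1:**
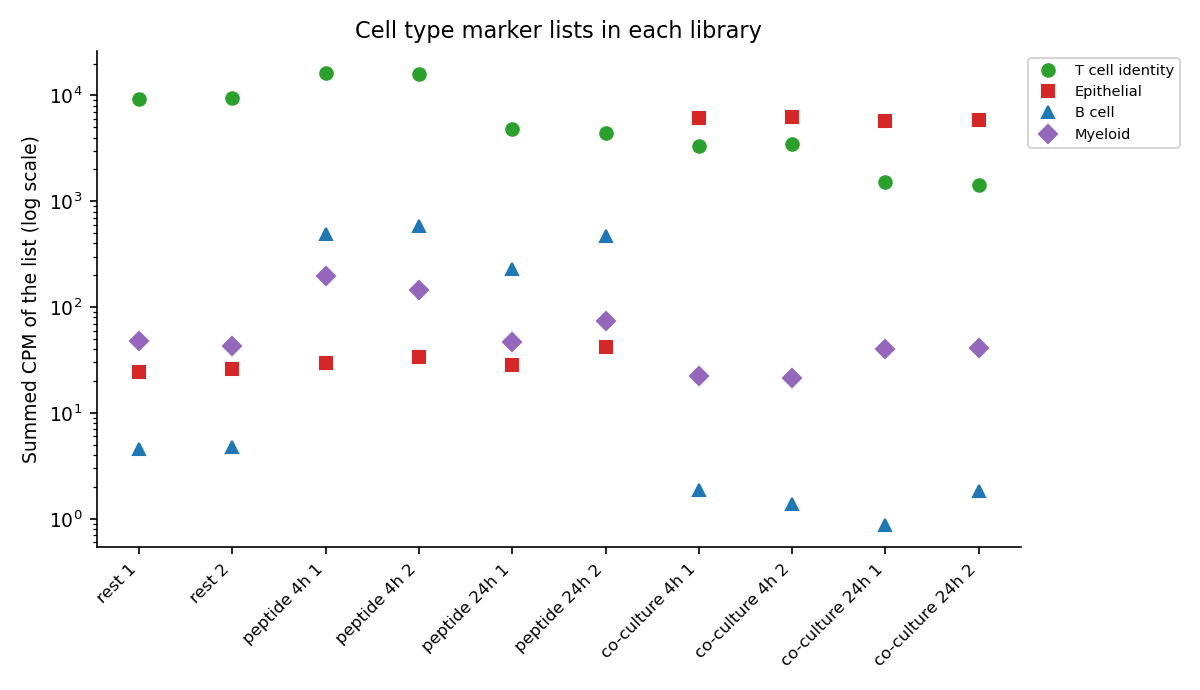
Summed level of 4 cell type marker lists (vertical axis, CPM on a log scale) in each of the 10 libraries (horizontal axis). Epithelial markers sit at 5702 to 6307 CPM in the 4 co-culture libraries and at 42.4 CPM or less elsewhere, and T cell identity genes are lowest in co-culture at 24 h.

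The time courses differed for 5307 genes, 36% of those tested, of which 2331 were higher in the interaction (15.8%) and 2976 lower (20.2%). For 5293 of the 5307 the sign was the same in all 16 choices of 1 library per group. With peptide, 4158 genes rose from 4 h to 24 h (28.2%) and 3629 fell (24.6%), whereas in co-culture 1252 rose (8.5%) and 1181 fell (8.02%). The SD of the log2 change over genes was 1.98 with peptide and 0.97 in co-culture. In 88.7% of the higher calls and 89.3% of the lower calls the peptide change was the larger of the pair. The split of calls depends on how libraries are scaled. Higher calls made up 43.9% of all calls with the scaling used here, 16% (1000 higher and 5238 lower) when libraries were scaled to their totals, and 14% (862 and 5288) when they were set equal on the T cell identity genes. Those scalings moved the median of all genes by -0.60 and -0.63 on the log2 scale. The T cell scaling uses the median of genes that themselves changed within the peptide arm, so it is not a measure of T cell content. Under every setting tried, no call turned to a call in the opposite direction.

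**Figure D2:**
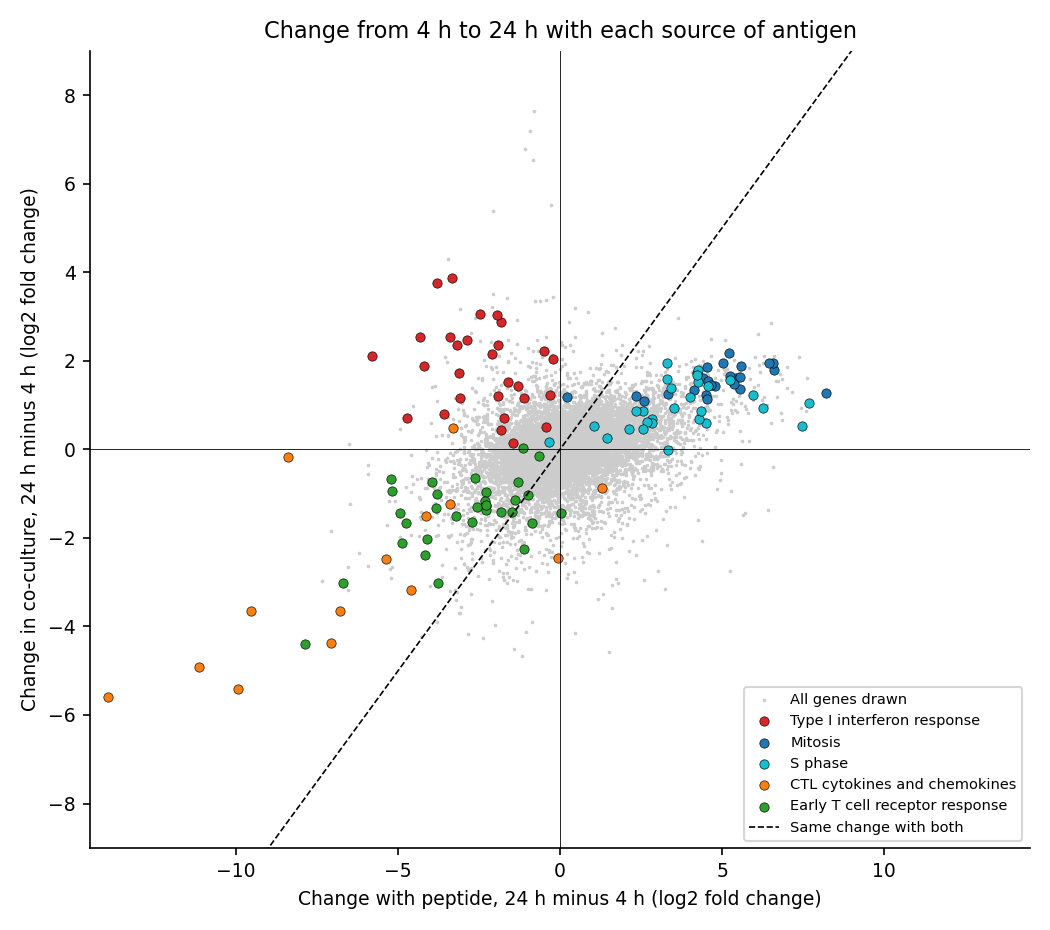
Change from 4 h to 24 h in co-culture (vertical axis) against the change with peptide (horizontal axis), both as log2 fold change, 1 point per gene. Genes whose counts summed to 3 or fewer in any of the 4 groups are not drawn. Type I interferon genes lie upper left (up in co-culture, down with peptide), and all but 2 S phase and mitosis genes lie below the dashed line of equal change.

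The most frequent pattern was a change with peptide that co-culture did not share past the threshold. Of the higher calls, 1621 (69.5%) fell with peptide and did not pass the test in co-culture, and of the lower calls 2051 (68.9%) rose with peptide and did not pass in co-culture. Genes with opposite changes, past the threshold in both arms, were fewer: 177 rose in co-culture and fell with peptide, and 168 did the reverse, together 6.5% of the calls. Of those 177 genes, 36 (20.3%) stood in the lists of type I interferon or interferon-gamma response genes, which hold 0.387% of the genes tested. Put the other way, 63.2% of the 57 tested genes of these lists had opposite changes. The lists were chosen with earlier results of these data known, so these shares are descriptions.

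**Figure D3:**
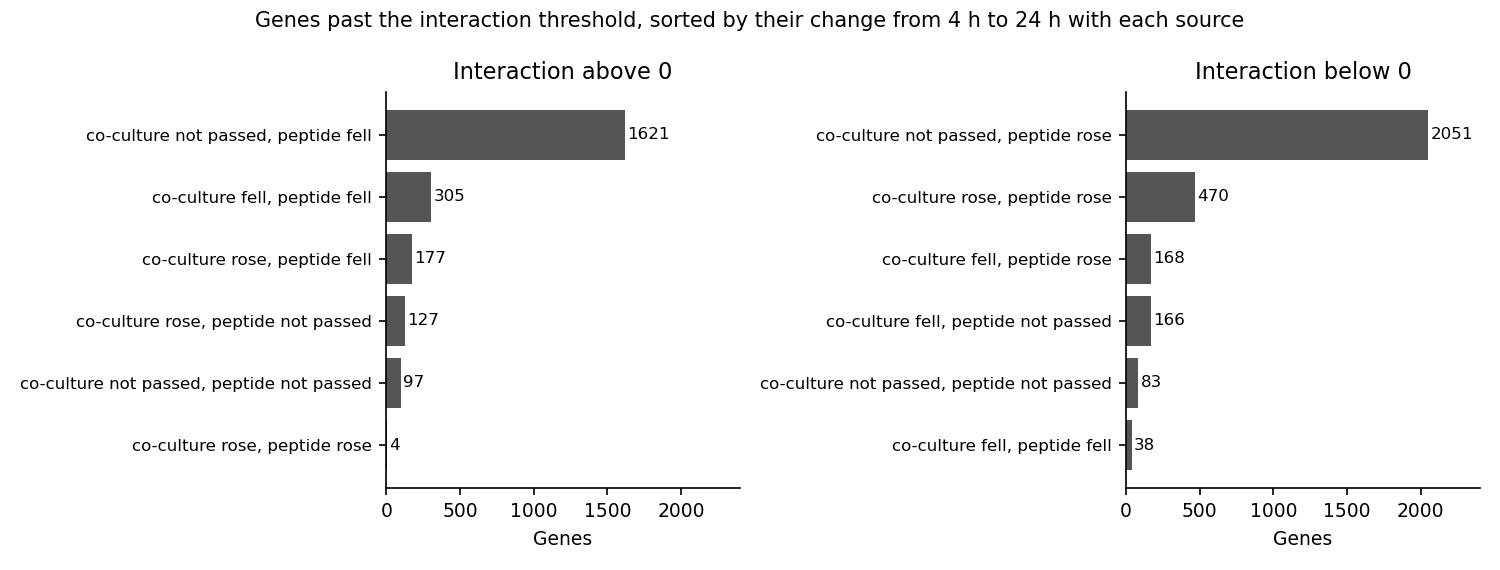
Number of genes (horizontal axis) past the interaction threshold in each class of change from 4 h to 24 h, with positive interactions in the left panel and negative ones in the right panel. The longest bars are genes that changed with peptide alone past the threshold, 1621 and 2051.

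Type I interferon response genes formed the most uniform group. All 28 tested members were higher in the interaction, beside 15.8% of all genes, with a median of 4.34 beside -0.10 for all genes. The median change was 1.96 in co-culture and -2.03 with peptide, and 24 of the 28 rose in co-culture and fell with peptide, both past the threshold. For 23 of the 28 the highest group mean, rest included, was co-culture at 24 h. All 28 stayed higher without any 1 library, and 27 did under library totals and under the T cell scaling. The promoters of Isg15, Rsad2 and Ifih1, members that rose and fell in this opposite way, carry the ISRE and are shown for that reason.

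The sequences below are RefSeq's, build GRCm38.p6, 250 bases before to 50 bases after the gene start, written 5′ to 3′ in the direction of the gene. Capitals mark the ISRE (matched on either strand), with overlapping matches joined.
Isg15 (chr4:156200769-156201068, minus strand): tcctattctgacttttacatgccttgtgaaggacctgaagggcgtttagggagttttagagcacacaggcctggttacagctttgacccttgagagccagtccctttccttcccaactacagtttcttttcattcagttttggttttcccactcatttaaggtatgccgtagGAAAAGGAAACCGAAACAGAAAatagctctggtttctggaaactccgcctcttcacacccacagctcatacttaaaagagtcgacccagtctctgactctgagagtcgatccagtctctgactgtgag
Rsad2 (chr12:26456403-26456702, minus strand): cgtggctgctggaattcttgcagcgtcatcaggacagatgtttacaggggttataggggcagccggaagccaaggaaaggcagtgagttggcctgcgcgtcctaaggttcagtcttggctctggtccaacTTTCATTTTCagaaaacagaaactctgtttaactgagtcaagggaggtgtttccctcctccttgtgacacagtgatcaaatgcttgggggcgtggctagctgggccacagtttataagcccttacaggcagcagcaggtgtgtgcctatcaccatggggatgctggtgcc
Ifih1 (chr2:62646206-62646505, minus strand): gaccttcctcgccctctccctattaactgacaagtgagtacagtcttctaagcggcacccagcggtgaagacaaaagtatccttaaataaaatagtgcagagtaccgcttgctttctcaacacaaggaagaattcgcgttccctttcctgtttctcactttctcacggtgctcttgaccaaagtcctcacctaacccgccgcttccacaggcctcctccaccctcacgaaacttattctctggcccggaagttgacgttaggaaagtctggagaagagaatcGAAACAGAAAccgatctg
The element starts 78 bases before the start of Isg15, 120 bases before that of Rsad2 and 32 bases after that of Ifih1. It was present in 11 of 20 type I interferon genes with a promoter entry (55.0%), in 11 of 20 interferon-gamma genes (55.0%), in 1 of 24 early T cell receptor response genes (4.17%) and in 3.99% of all 27025 promoters of this length. The AP-1 motif (TGANTCA, either strand) was found in 4 of the 20 type I genes (20.0%) and 2 of the 24 early response genes (8.33%), against 8.97% of all promoters. The NF-kB motif (GGGNNTTCC, either strand) was in 2 of the 20 and 4 of the 24 (10.0% and 16.7%), against 6.58%. A match is a run of letters and not a measured binding site.

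Isg15 (chr4:156199424-156200818, minus strand, mm10), the ubiquitin-like antiviral modifier, read 77 and 69.2 CPM with peptide at 4 h and 7.4 and 8.74 CPM at 24 h, while co-culture gave 26 and 26.3 CPM at 4 h and 141 and 126 CPM at 24 h. Both arms thus had non-overlapping times in opposite order, and the peptide 24 h libraries were close to the resting ones (6.27 and 8.65 CPM). Its interaction was 5.53 ± 0.25, adjusted p = 2.7e-08. For Rsad2 (viperin, an antiviral enzyme; chr12:26442753-26456452, minus strand), with peptide the libraries read 59.9 and 48.7 CPM at 4 h and 0.959 and 0.984 CPM at 24 h, and in co-culture 13 and 16.8 CPM at 4 h and 70.3 and 58.8 CPM at 24 h. The pattern was that of Isg15, and the interaction was 7.90 ± 0.38, adjusted p = 2.8e-08. Ifih1, the RNA sensor MDA5, differed in shape: with peptide the libraries read 378 and 347 CPM at 4 h and 14.4 and 12.8 CPM at 24 h, and in co-culture 33.5 and 32.2 CPM at 4 h and 56.5 and 50.3 CPM at 24 h. Its peptide 4 h level was the highest of all groups, so that the fall with peptide (-4.73 ± 0.17) made up most of the interaction of 5.44 ± 0.22, adjusted p = 1.4e-08. Mx2, an interferon-induced GTPase, came instead from a low 4 h level in co-culture, 2.91 and 1.7 CPM, to 29.5 and 31.4 CPM, while with peptide it went from 36.9 and 39.3 to 2.72 and 2.79 CPM (7.55 ± 0.36, adjusted p = 2.7e-08). Irf7, the transcription factor that amplifies type I interferon, Cmpk2, a mitochondrial nucleotide kinase, and Zbp1, a sensor of Z-form nucleic acid, had interactions of 5.34 ± 0.29, 6.09 ± 0.26 and 4.29 ± 0.20, with adjusted p of 7.8e-08, 2.4e-08 and 2.7e-08.

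**Figure D4:**
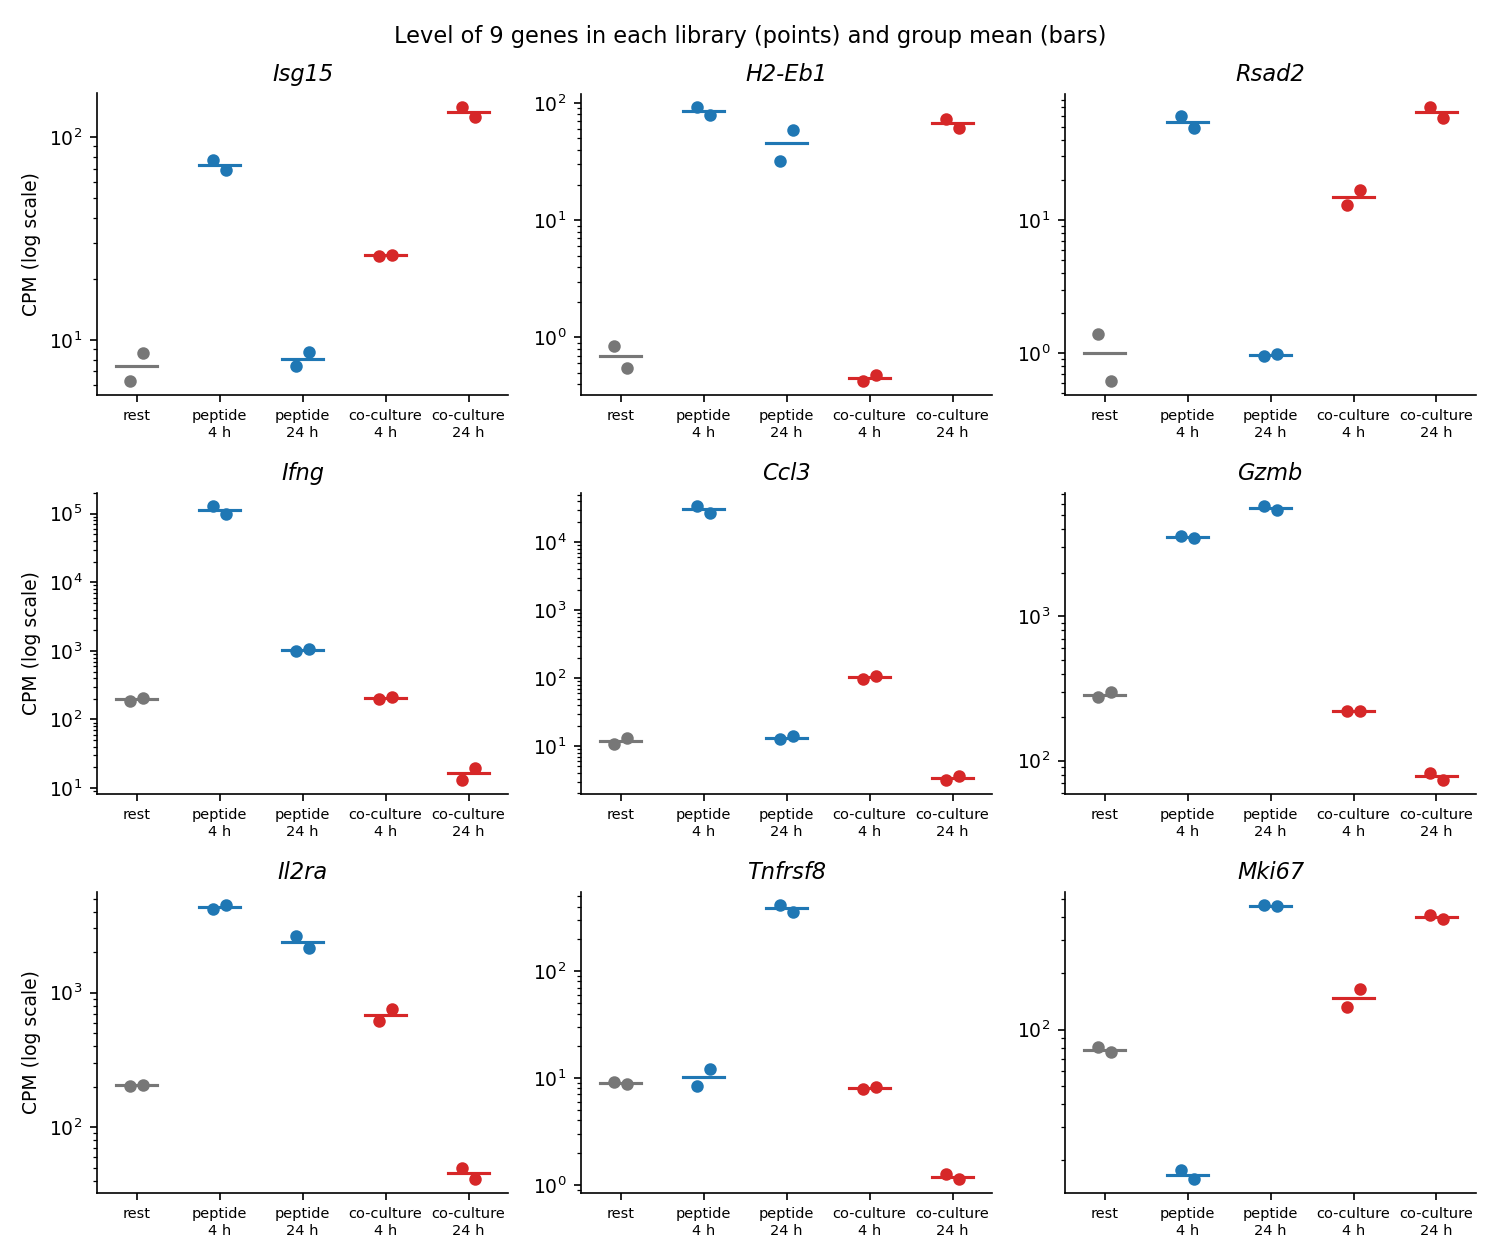
Level of 9 genes (vertical axis, CPM on a log scale) in each library (points) and as the mean of each group (bars), for rest, peptide and co-culture. Isg15 and Rsad2 fall with peptide and rise in co-culture, Gzmb and Tnfrsf8 do the reverse, and Ifng falls in both arms from very different 4 h levels.

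Transcripts of the interferon ligands looked up were scarce, apart from Ifng. These ligands were picked after their values had been seen. Ifnb1 had 15 and 0 counts with peptide at 4 h, none at 24 h, 2 and 3 counts in co-culture at 4 h, and 2 and 8 at 24 h. The interferon lambda gene Ifnl2 had 89 and 71 counts with peptide at 4 h, 7 and 5 at 24 h, 26 and 26 in co-culture at 4 h, and 0 and 0 at 24 h. The 13 interferon alpha genes held 1 count in all 10 libraries together. The libraries with the highest type I response levels, co-culture at 24 h, held few or no counts of these ligands. The part of any ligand in the response was not tested.

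Interferon-gamma response genes moved the same way with smaller differences. Of 29 tested, 25 were higher and none lower, beside 15.8% and 20.2% of all genes. The median was 2.07, with 0.59 in co-culture and -1.23 with peptide. Under the T cell scaling and library totals 22 and 24 were higher, and each called 2 members lower. The MHC class II genes stood out in the list. H2-Eb1 (chr17:34305877-34316199, plus strand), a class II beta chain, had 92.1 and 78.8 CPM with peptide at 4 h and 32.3 and 58.3 CPM at 24 h. In co-culture it went from 0.424 and 0.474 CPM to 72.6 and 61.3 CPM, so the 4 h co-culture libraries were as low as rest (0.84 and 0.549 CPM) and all other activated libraries were far above. The interaction of 8.10 ± 0.44, adjusted p = 7.6e-08 came mainly from co-culture (7.18 ± 0.36). H2-Ab1 (7.86 ± 0.50), H2-Aa (7.35 ± 0.64) and H2-DMb1, a chain of the peptide-loading factor (7.46 ± 0.72), were also higher, with adjusted p of 2.4e-07, 2.5e-06 and 6e-06. Ciita, the master regulator of class II genes, was looked up after the values had been seen. It had 418 and 751 counts in co-culture at 4 h and 1315 and 887 at 24 h. With peptide it had 118 and 136 counts at 4 h and 76 and 111 at 24 h. Class II genes are also expressed by B cells, whose markers were present with peptide at both times. In co-culture at 24 h, where H2-Eb1 read 72.6 and 61.3 CPM, 7 of 14 B cell markers had no count and the list summed to 1.85 CPM at most. The cell source of class II transcripts in either arm, and the part of Ciita in their levels, were not tested.

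The interferon-induced chemokines that draw CXCR3-bearing T cells behaved likewise. Cxcl9 read 205 and 120.1 CPM with peptide at 4 h and 10.4 and 12.2 CPM later, against 175 and 170.1 CPM and 389.6 and 538 CPM in co-culture, so that both arms began at similar levels and parted (5.28 ± 0.39, adjusted p = 6.9e-07). Cxcl11 gave 5.35 ± 0.37, adjusted p = 4.4e-07. Cxcl10 fell with peptide (-2.58 ± 0.16) and did not pass in co-culture (-0.41 ± 0.15), with an interaction of 2.17 ± 0.21, adjusted p = 7.5e-06. Ido1, the tryptophan-degrading enzyme, rose in co-culture from 4 and 4.54 to 37.4 and 52.1 CPM and stayed at 1.24 CPM or below with peptide (3.82 ± 0.69, adjusted p = 0.00082); without peptide 4 h replicate 2 its adjusted p was 0.064. Of 18 genes of MHC class I antigen processing, 11 were higher and 1 lower (median 0.85), beside 15.8% and 20.2% of all genes. Under the T cell scaling and library totals, 7 and 8 were higher. B2m, the class I light chain, fell with peptide from 5344 and 4100 to 2159 and 2671 CPM and rose in co-culture from 1995 and 1821 to 2779 and 3947 CPM (1.79 ± 0.26, adjusted p = 0.00017). The lower one, the immunoproteasome subunit Psmb8 (-0.63 ± 0.21), lost its call in several fits that leave out 1 library.

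**Figure D5:**
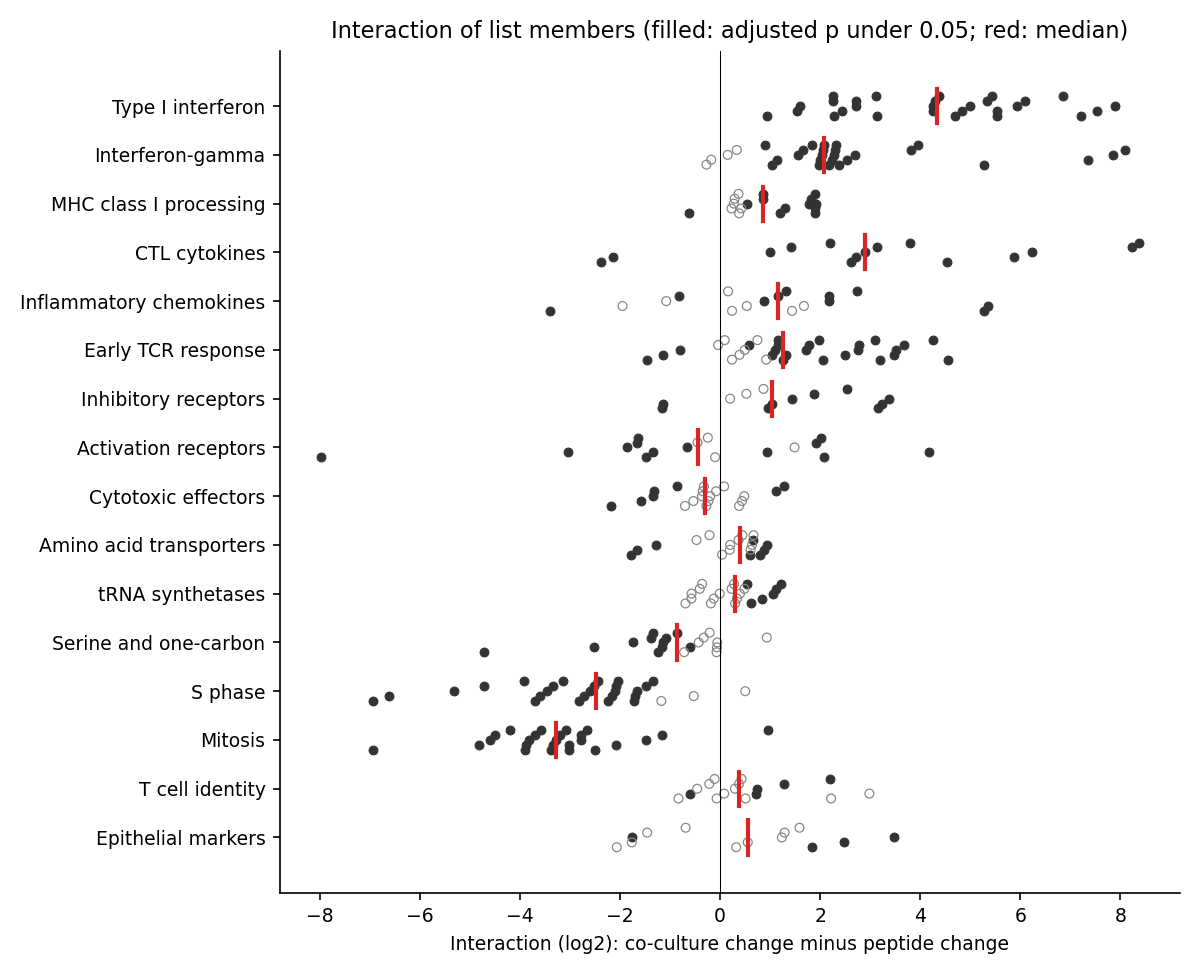
Interaction (horizontal axis, log2) of the members of 16 gene lists (rows). Filled points passed the test, open points did not, and red bars are medians of the members drawn, which leave out genes with 3 or fewer counts in a group. All type I interferon genes lie above 0, and 25 of 28 S phase and 24 of 25 mitosis genes are filled below 0.

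Cytokine genes of CTLs fell in both arms, and fell further with peptide, from a far higher 4 h level. Of 20 tested, 14 were higher in the interaction and 2 lower, beside 15.8% and 20.2% of all genes. The median interaction was 3.02 (3.0 with members of 3 or fewer counts set at 3 counts). The median change was -5.29 with peptide and -2.47 in co-culture. Under library totals and under the T cell scaling, 12 of the 20 were higher and 2 lower. Ifng (chr10:118441047-118445892, plus strand) read 128634 and 98762 CPM with peptide at 4 h and 1004 and 1056 CPM at 24 h, while co-culture gave 198 and 211 CPM and then 13.1 and 19.7 CPM. Its co-culture 4 h libraries were close to rest (189 and 209 CPM), and those at 24 h were the lowest of all. A positive interaction of 3.15 ± 0.26, adjusted p = 1.7e-06 therefore stands for a smaller fall and not for a higher level. The chemokines Ccl3 and Ccl4 gave 6.25 ± 0.26 and 5.88 ± 0.22, with adjusted p of 1.7e-08 and 9e-09. Csf2, the growth factor GM-CSF, fell with peptide from 629 and 498 to 1.17 and 2.13 CPM and stood at 3.64 and 2.21 and then 2.18 and 2.88 CPM in co-culture (8.24 ± 0.54, adjusted p = 2.7e-07). Tnf gave 2.89 ± 0.25, adjusted p = 2.5e-06. Ccl5, a chemokine made by memory CTLs, was the only tested member to rise in co-culture, from 229 and 263 to 366 and 322 CPM, and fell with peptide from 709 and 758 to 76.5 and 71.8 CPM (3.79 ± 0.19, adjusted p = 3.8e-08). Lta, lymphotoxin alpha, was lower: it stood at 1069.9 and 1177 and then 1190.3 and 955 CPM with peptide and fell in co-culture from 66.8 and 77.9 to 14.6 and 11.9 CPM (-2.38 ± 0.22, adjusted p = 4.3e-06). Of 21 inflammatory chemokines and growth factors, 8 were higher and 2 lower, beside the same 15.8% and 20.2%, and 5 were higher under both other scalings.

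Early response genes of the T cell receptor showed the same order. Of 31 members, 30 fell with peptide and 29 fell in co-culture, beside 24.6% and 8.02% of all genes. The list summed to 6919 and 6809 CPM at rest and to 12380 and 13410 CPM with peptide at 4 h. In co-culture at 4 h it summed to 4433 and 4694 CPM, below rest. For 11 of the 31 members the highest group mean was at rest, and for 16 it was peptide at 4 h. In co-culture at 24 h, 26 of the 31 had a group mean below rest. In the interaction 21 were higher and 3 lower, beside 15.8% and 20.2% of all genes (median 1.27, with -2.64 for peptide and -1.37 for co-culture). Under library totals 17 were higher and 4 lower, and under the T cell scaling 16 and 4. Nr4a3, an orphan nuclear receptor induced by receptor signals, read 2438 and 2427 CPM with peptide at 4 h and 9.48 and 11.4 CPM at 24 h, while co-culture gave 79.8 and 97.2 CPM and then 4.78 and 3.65 CPM. At 24 h the co-culture libraries were thus below the peptide ones although the interaction was positive (3.48 ± 0.24, adjusted p = 4e-07). Ier3, an immediate early survival gene, and Nfkbiz, an atypical inhibitor of NF-kB, ended instead higher in co-culture. Nfkbiz fell from 649 and 654 to 15.7 and 19.7 CPM with peptide and from 163 and 159 to 85.6 and 80.7 CPM in co-culture (4.25 ± 0.20, adjusted p = 2.8e-08), and Ier3 gave 4.55 ± 0.22, adjusted p = 2.8e-08. The 3 lower members were Fosl1, an AP-1 subunit (-1.46 ± 0.34), Irf4, a factor of effector T cell growth (-1.14 ± 0.30), and the phosphatase Dusp5 (-0.80 ± 0.20), with adjusted p of 0.0042, 0.0089 and 0.0078. Irf4 missed the threshold without co-culture 4 h replicate 2 (adjusted p = 0.059). Fosl1 was hardly present with peptide (4.6 CPM at most) and reached 239 and 259 CPM in co-culture at 4 h, in libraries that hold epithelial RNA.

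Some genes of killing and some activation receptors were lower. Gzmb, the granzyme of CTL granules, rose with peptide from 3593 and 3451 to 5762 and 5389.8 CPM and fell in co-culture from 222 and 222 to 82.2 and 73.5 CPM (-2.17 ± 0.17, adjusted p = 1.4e-06). No library of an arm overlapped between times. Prf1, the pore-forming perforin, fell in both arms and further in co-culture (-1.59 ± 0.21, adjusted p = 7.6e-05). Of 20 cytotoxic effectors 2 were higher and 5 lower, a share near the 20.2% of all genes, and 8 were lower under both other scalings. Il2ra, the IL-2 receptor alpha chain, went from 4172 and 4465 to 2628 and 2133 CPM with peptide and from 616 and 754 to 50.1 and 41.2 CPM in co-culture, where the 24 h libraries lay below rest (203 and 207 CPM). It fell in both arms and its interaction was -3.05 ± 0.22, adjusted p = 5.8e-07. Tnfrsf9, the costimulatory receptor 4-1BB, gave -1.87 ± 0.22, adjusted p = 3.5e-05. Of 17 activation receptors 8 were lower and 5 higher, beside 20.2% and 15.8% of all genes, the latter including both chains of the IL-18 receptor, Il18r1 (2.08 ± 0.18) and Il18rap. This count was 11 lower and 3 higher under library totals and 10 and 3 under the T cell scaling, and 2 and 3 were higher without co-culture 4 h replicate 2 or co-culture 24 h replicate 1. Beside these falls in co-culture stand those of the T cell identity genes, of which 14 of 18 fell in co-culture and 15 with peptide. Cd8a, the CD8 alpha chain, fell by a similar amount in both arms (-3.18 ± 0.19 and -3.26 ± 0.19), with an interaction of 0.08 ± 0.25, adjusted p = 0.85 (95% interval -0.47 to 0.63).

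Of 16 inhibitory receptors 8 were higher and 2 lower, beside 15.8% and 20.2% of all genes (median 0.92, and 1.21 with 3 members set at 3 counts), and 5 were higher under both other scalings. Cd274, the ligand PD-L1, fell from 913 and 813 to 77.8 and 75.9 CPM with peptide and from 170.3 and 192 to 88.4 and 99.9 CPM in co-culture (2.54 ± 0.19, adjusted p = 6.6e-07). Ctla4 rose in co-culture from 20.1 and 22.3 to 39.8 and 45 CPM and fell with peptide from 36.4 and 24 to 6.44 and 6.28 CPM, all far below rest (894 and 919 CPM; 3.24 ± 0.26, adjusted p = 1.5e-06). Havcr2, the receptor TIM-3, gave 1.88 ± 0.22, adjusted p = 3.3e-05. Pdcd1, the receptor PD-1, gave 0.97 ± 0.19, adjusted p = 0.0013, and missed the threshold under library totals and the T cell scaling (log2 0.37 and 0.33). Among 22 memory and quiescence genes 9 were higher and 3 lower (3 and 5 under both other scalings; 4 higher without co-culture 4 h replicate 1). Btg1, an antiproliferative gene, and Slfn2, a quiescence gene, fell with peptide by 3.73 ± 0.14 and 3.66 ± 0.19 on the log2 scale and gave interactions of 3.25 ± 0.18 and 3.99 ± 0.25, adjusted p = 8.5e-08 and 1.9e-07. Ccr7, the lymph node homing receptor, rose with peptide from 50.2 and 53 to 167 and 149 CPM and fell in co-culture from 7.52 and 4.94 to 1.3 and 0.103 CPM (-4.68 ± 0.58, adjusted p = 4.7e-05).

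Tnfrsf8, the receptor CD30, had the strongest opposite change in the direction of peptide. The gene (chr4:145267137-145315164, minus strand) went from 8.4 and 12 CPM to 412 and 357 CPM between the times with peptide, and went from 7.94 and 8.14 to 1.25 and 1.13 CPM in co-culture. Rest and both 4 h groups were alike in level, so the arms parted after 4 h (-7.98 ± 0.29, adjusted p = 9e-09). The 7 other genes with the lowest p among those that rose with peptide, fell in co-culture and reached at least 50 CPM did not all have alike 4 h levels. They were the neurofilament gene Nefh (-4.43 ± 0.24), the protease inhibitor Serpine2 (-3.87 ± 0.21), the purine transporter Slc43a3 (-4.85 ± 0.27), Adap1, a regulator of ARF6 (-3.65 ± 0.20), the secreted glycoprotein Olfm4 (-4.32 ± 0.25), the small GTPase Arl4c (-3.14 ± 0.19) and C1qtnf6, a C1q-domain protein (-4.20 ± 0.27). Serpine2 read 121 and 107 and then 725 and 664 CPM with peptide, and 113 and 126 and then 55.7 and 43.9 CPM in co-culture. Arl4c differed between the arms at 4 h, with 1618 counts in the peptide group and 18311 in the co-culture group, beside 24578 at rest. Its 24 h groups held 12201 counts with peptide and 11234 in co-culture. These counts are not scaled to library size, which differs between the groups. Once scaled, Arl4c rose 5.5-fold with peptide from 4 h to 24 h and fell 1.6-fold in co-culture. These 8 interactions were past the threshold in every fit that left out 1 library and under both other scalings.

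Division genes rose in both arms, far more with peptide. Of 28 S phase genes 25 were lower and none higher (median -2.49, with 3.48 for peptide and 0.87 for co-culture), and of 25 mitosis genes 24 were lower (median -3.29, with 4.78 and 1.55), beside 20.2% of all genes. Mki67, the proliferation marker Ki-67, read 17.6 and 15.8 CPM with peptide at 4 h and 463 and 458 CPM at 24 h, while co-culture gave 133 and 164 CPM and then 409 and 392 CPM. Peptide at 4 h was below rest (80.6 and 75.8 CPM) and co-culture at 4 h above it, and the 24 h levels of the arms were close, so the interaction of -3.35 ± 0.20, adjusted p = 1.5e-07 reflects unlike 4 h levels. The same held for Top2a, topoisomerase II alpha, whose 4 h libraries held 379 and 369.7 CPM in co-culture against 14.8 and 14.1 CPM with peptide (-3.59 ± 0.22, adjusted p = 1.5e-07). At 24 h its co-culture libraries (1009.8 and 1355 CPM) stood above the peptide ones (553 and 549 CPM). The lists differed in where they ended: for 24 of 28 S phase genes the highest group mean was peptide at 24 h, and for 22 of 25 mitosis genes it was co-culture at 24 h. Rrm2, a subunit of ribonucleotide reductase, rose from 2.51 and 2.05 to 507 and 429 CPM with peptide and from 96.1 and 100.02 to 229 and 178 CPM in co-culture (-6.63 ± 0.30, adjusted p = 2.7e-08). Mcm6, of the replicative helicase, gave -3.35 ± 0.19, adjusted p = 8.3e-08. The mitotic activator Cdc20 was the only higher member of the mitosis list (0.96 ± 0.28, adjusted p = 0.018), and it missed the threshold under both other scalings (log2 0.37 and 0.33) and in several fits without 1 library. Dividing 4T1 cells and dividing CTLs cannot be told apart in these libraries.

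The series title names Slc7a5, the light chain of the LAT1 carrier that brings tryptophan and other large neutral amino acids into the cell. For Slc7a5, with peptide the libraries read 244 and 325 CPM at 4 h and 239.9 and 185 CPM at 24 h, and in co-culture 90.8 and 111 CPM at 4 h and 112 and 61.1 CPM at 24 h. The times overlapped in level in co-culture, and the interaction was 0.20 ± 0.35, adjusted p = 0.7 (95% interval -0.55 to 0.95). Slc3a2, its heavy chain, gave 0.88 ± 0.24, adjusted p = 0.012, with 415 and 501 and then 194 and 169.6 CPM with peptide and 162 and 189 and then 147 and 109 CPM in co-culture. It missed the threshold under library totals and the T cell scaling (log2 0.29 and 0.25) and without co-culture 4 h replicate 1 (adjusted p = 0.072). Of 21 tested amino acid transporters 5 were higher and 4 lower, shares near those of all genes (15.8% and 20.2%), and under each of the other scalings none was higher. Of 18 tryptophan and aryl hydrocarbon receptor genes 2 were higher, Ido1 and the receptor target Tiparp (2.27 ± 0.26, adjusted p = 2.2e-05), and 3 lower. Of 20 cytosolic aminoacyl-tRNA synthetases 6 were higher and none lower, but 2 higher and 8 lower under library totals and 1 and 7 under the T cell scaling. Wars, which charges tRNA with tryptophan, gave -0.57 ± 0.25, adjusted p = 0.092, and was lower under both other scalings (log2 -1.16 and -1.20).

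Of 34 ribosome biogenesis genes 15 were higher and none lower (median 0.57), beside 15.8% and 20.2% of all genes, but 3 were higher and 4 lower under library totals, 3 and 3 under the T cell scaling, and 8 higher without co-culture 4 h replicate 2. Of 19 serine and one-carbon genes 11 were lower and none higher (median -0.86), and 17 were lower under both other scalings. The lower ones included Psat1 of serine synthesis (-1.38 ± 0.19, adjusted p = 0.00011). Cholesterol synthesis had 9 lower and 2 higher of 23 (17 and 16 lower under library totals and the T cell scaling), led by Dhcr7, a late enzyme of the pathway, which rose from 1.4 and 2.78 to 28.8 and 27 CPM with peptide and stood at 15.9 and 17.9 and then 31.9 and 22 CPM in co-culture (-3.06 ± 0.39, adjusted p = 5.8e-05). Glycolysis had 8 lower and 3 higher of 21 (14 and 13 lower under the other scalings, 5 without co-culture 4 h replicate 2), and oxidative phosphorylation 6 lower and none higher of 31, a share of lower calls near that of all genes. The latter list had 19 and 17 lower under the other scalings, 2 and 3 lower without co-culture 4 h replicate 1 or 2, 3 lower with the replicate block, 3 higher without peptide 4 h replicate 2 and 4 higher without co-culture 24 h replicate 1. These 2 lists contained Pdk1, the kinase that limits pyruvate entry into mitochondria (-2.67 ± 0.26, adjusted p = 7.6e-06), and Ndufv1 of complex I (-1.42 ± 0.19, adjusted p = 7.2e-05).

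The integrated stress response had 6 higher and 6 lower of 20, beside 15.8% and 20.2% of all genes, and 2 higher and 8 lower under both other scalings, with Chac1, which degrades glutathione, higher (3.40 ± 0.54, adjusted p = 0.00033) and Ddit4, an inhibitor of mTORC1, lower. Ddit4 rose from 9.8 and 9.57 to 111 and 94.3 CPM with peptide and stood at 112 and 99.3 and then 136 and 117 CPM in co-culture (-3.15 ± 0.22, adjusted p = 3.8e-07). Hypoxia genes were also 6 and 6 of 20, but 2 higher and 9 lower under library totals and 2 and 8 under the T cell scaling. Of p53 and apoptosis genes 6 were higher and 10 lower of 23, but 3 and 13 under library totals and 1 and 13 under the T cell scaling. Cdkn1a, the cell cycle inhibitor p21, rose with peptide from 164 and 198 to 463 and 375 CPM and fell in co-culture from 73.2 and 75.2 to 35.9 and 26 CPM (-2.47 ± 0.25, adjusted p = 7.8e-06), and Ccng1, another p53 target, gave -2.31 ± 0.24, adjusted p = 1.3e-05. Of 19 chaperones 9 were higher and 1 lower (3 and 3 under library totals, 2 and 4 under the T cell scaling). Hspa5, the endoplasmic reticulum chaperone BiP, fell with peptide from 3644 and 2938 to 961 and 1003 CPM and rose in co-culture from 1338 and 1353 to 1765 and 2044 CPM (2.25 ± 0.20, adjusted p = 2.9e-06). TGF-beta response genes had 9 higher and 1 lower of 22 (8 and 4 under both other scalings), among them the inhibitory Smad7 (2.46 ± 0.24, adjusted p = 6e-06), the corepressor Tgif1 (3.03 ± 0.24, adjusted p = 1.3e-06) and Rgs16, a brake on G protein signals (5.25 ± 0.25, adjusted p = 2.7e-08).

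Of 25 epithelial genes 3 were higher and 2 lower, beside 15.8% and 20.2% of all genes, with 1 higher and 4 lower under both other scalings and 6 lower without peptide 24 h replicate 1. Krt8, a keratin of simple epithelia at 1356 and 1256 and then 855 and 1007 CPM in co-culture, did not pass (-1.77 ± 1.19, adjusted p = 0.28). It passed with no filter (log2 -1.78), and without peptide 24 h replicate 1 its log2 interaction was -2.77. In the peptide libraries Krt8 read 1.64 CPM at most. Of 18 stromal genes 6 were lower and 1 higher, with 14 lower without peptide 24 h replicate 1 and 2 or 3 lower without any 1 of the peptide 4 h replicates, peptide 24 h replicate 2, the co-culture 4 h replicates or co-culture 24 h replicate 2. Peptide 24 h replicate 2 stood apart in this list: the collagen genes Col1a1 and Col3a1 had 341 and 549 counts there and 3 counts each in peptide 24 h replicate 1, and Sparc, a collagen-binding matrix protein, had 327 against 3. None of 14 B cell genes passed, 4 of 14 myeloid genes were higher, and of 6 CD4 T and NK cell genes 3 were higher and 1, Cd4, lower (-2.82 ± 0.38, adjusted p = 9.1e-05). Among the myeloid genes Mpeg1, a pore-forming protein of macrophages, fell with peptide from 77.3 and 70.4 to 20.2 and 27.8 CPM and rose in co-culture from 3.27 and 3.32 to 18.5 and 17.7 CPM (4.08 ± 0.29, adjusted p = 4.5e-07). Of the 14 myeloid genes, 1 rose in co-culture past the threshold and none fell. Lyz2 stood there at 1.7 and 0.95 and then 1.25 and 1.23 CPM, and C1qa had no count. The myeloid list summed to 197 and 144.5 CPM with peptide at 4 h, 47.2 and 74.5 CPM at 24 h, and, in co-culture, 22.5 and 21.4 CPM at 4 h but 40 and 41.1 CPM at 24 h.

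The largest fitted differences often rested on a group without reads. A count of 3 over a group was taken as the floor, and 4 of the 12 highest and 11 of the 12 lowest named interactions had a group at or under it, so bounds or counts are given in their place. Il2, the T cell growth factor, had 121 and 90 counts with peptide at 4 h and none at 24 h, at least 95.7-fold lower, and in co-culture 0 and 1 counts at 4 h and 3 and 1 at 24 h. Lipg, endothelial lipase, had 28 counts in the peptide 4 h group and none at 24 h, at least 12.7-fold lower, and rose in co-culture from 21.2 and 17.5 to 57.3 and 52.8 CPM. Aunip, a partner of Aurora kinase A, had no count with peptide at 4 h and 12.9 and 8.8 CPM at 24 h, at least 99.0-fold higher, beside 5.27 and 4.62 and then 12.2 and 10.5 CPM in co-culture. Amotl1, a junction protein, was at least 46.8-fold higher with peptide at 24 h than at 4 h, where it had no count, and in co-culture it stood at 236 and 257 and then 306 and 222 CPM. The muscle gene Tnni2 was lower in the interaction only through peptide 24 h replicate 2, since without it the adjusted p was 0.41.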

How the data were processed

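The values were read counts per Ensembl gene, whole numbers deposited by the authors without scaling. Per the submitters' processing notes, DESeq2 1.36 and the build mm10 were used. Not given in the sources used here are the aligner, the counter, the strand setting and how shared reads were handled, so paralogs (such as the class II, Hspa1a/Hspa1b and Ifit genes) and overlapping genes are less certain. Library totals ran from 14104658 to 22910633 counts. In R 4.3.3, edgeR 4.0.16 kept genes by filterByExpr, scaled libraries by TMM (factors 0.711 and 0.758 with peptide at 4 h, 1.03 to 1.11 elsewhere) and fitted quasi-likelihood means of 5 groups to all 10 libraries, without covariates (5 residual degrees of freedom, prior 7.82, common biological coefficient of variation 0.159). Resting libraries add to the estimate of the spread. Tests were two-sided, with Benjamini-Hochberg adjustment within each contrast and a threshold of 0.05. Intervals of 95% use the SE and the t distribution with 12.8 degrees of freedom, and cover the spread between libraries only. On data simulated with known changes the fit was checked before use.

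Genes named were the 12 highest and 12 lowest interactions with at least 5 CPM in a group and the same sign in all 16 library choices, up to 4 members of each of 31 lists per direction, a panel of 30 genes, the 8 genes per direction with opposite changes, the lowest p and at least 50 CPM, and cell type markers. Not all are printed, and some are not reported here. Ciita and the interferon ligands lie outside the rule. The members and lists were chosen with earlier results of these data known, so list counts are descriptions. Libraries of a group were not duplicates (mean chi-square per gene 6.94 to 47.7). Promoters are RefSeq's (GRCm38.p6), and positions are those deposited. Alternatives used 8 libraries, RLE, library totals, T cell scaling, other filters, glmTreat, DESeq2 1.42.0, a replicate block and 1 library left out.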

Additional observations from a re-analysis of the deposited data

Results flagged for a closer look

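Antigen source and time interacted, by the test of the difference itself, for 2331 genes in the direction of co-culture and 2976 in the direction of peptide. Among genes named for opposite changes in the arms, 8 rose in co-culture and fell with peptide. Their log2 interactions were 5.44 for Ifih1, 6.09 for Cmpk2, 5.53 for Isg15, 4.29 for Zbp1, 7.90 for Rsad2, 3.79 for Ccl5, 8.10 for H2-Eb1 and 5.34 for Irf7. The other 8 rose with peptide and fell in co-culture, with -7.98 for Tnfrsf8, -4.43 for Nefh, -3.87 for Serpine2, -4.85 for Slc43a3, -3.65 for Adap1, -4.32 for Olfm4, -3.14 for Arl4c and -4.20 for C1qtnf6. All 16 passed edgeR's quasi-likelihood test in both arms and in the interaction. With 2 libraries a group, single libraries could not be tested for standing apart.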

How the results depend on the processing

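Against the 2331 higher and 2976 lower genes reported, library totals gave 1000 and 5238, the T cell scaling 862 and 5288, and glmTreat against a log2 change of 1 gave 649 and 1227. Leaving out 1 library gave 1663 to 2248 higher and 2147 to 2966 lower. The replicate block gave 2097 and 2708. Deviations of like-numbered libraries correlated at -0.161 to 0.081 between groups. Such correlations cannot show whether libraries were paired by design, and the labels do not say whether they were. DESeq2 gave 2758 and 2939, RLE 2570 and 2804, the 8 activated libraries 2299 and 2737, no filter 2440 and 3329, and a mean of at least 5 CPM 2401 and 2596. Of 3649 recomputed results for 216 named genes, 3371 kept direction and side of the threshold, 248 lost and 27 gained the call, and 3 changed sign. Those were Pkm (0.51, then -0.0907 under library totals and -0.123 under the T cell scaling) and Sparc (-5.41 to 1.32 with 1 library left out, positive without peptide 24 h replicate 2). Of 193 named genes past the threshold, 117 passed in every setting that tested them. Sparc rests on peptide 24 h replicate 2, which held 327 counts against 3 to 11 in the other peptide libraries. Depth limits genes with 3 or fewer counts in a group. The cause of the other changes was not tested.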
